A study of Mus musculus with 12 samples.

Results

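The 10 genes described here encode the NF-κB subunits (Nfkb1, Nfkb2, Rel, Rela and Relb), the classical IκB inhibitors (Nfkbia, Nfkbib and Nfkbie) and 2 nuclear IκB proteins (Nfkbiz and Bcl3), and they were picked by symbol out of the 23997 gene names measured. RNA-seq was performed on bone marrow-derived macrophages (BMDMs) of male C57BL/6 mice aged 8 to 10 weeks, grown with recombinant human macrophage colony-stimulating factor at 10 ng/ml for 7 d. WT and Pim1-/- cells were left untreated or received LPS, a bacterial ligand of TLR4, at 100 ng/ml for 4 h, which gave 4 groups of 3 libraries. The Pim1-/- mice carry a CRISPR-Cas9 deletion that spans exons I to V of Pim1 in every tissue, so the bone marrow that the BMDMs came from also lacked it, and the sources used here give no number of founder lines. The labels do not say whether libraries of a group came from separate mice or cultures, and p-values therefore measure only the spread between these libraries.

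NF-κB is a family of transcription factors that act as dimers. In resting cells IκB proteins hold most dimers in the cytoplasm, and TLR signaling through the IκB kinase complex marks IκB for destruction, which lets the dimers enter the nucleus and switch on inflammatory genes. Several subunits and most IκB proteins are themselves known NF-κB targets in macrophages, so that the pathway both amplifies and brakes itself, while the nuclear IκB proteins bind subunits on DNA and can raise or lower transcription.

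The deposited values are FPKM (fragments per kilobase of transcript, scaled to the fragments mapped in the library), whose sum over genes was 452511 to 489710 in untreated libraries and 713307 to 849323 after LPS, and replicates correlated across genes with Pearson's r of 0.9977 to 0.9989. All 10 members stood above 1 FPKM in all 12 libraries, and therefore all were among the 10581 genes that had at least 1 FPKM in at least 3 libraries. Pim1, the deleted gene, was at 25.0, 21.5 and 22.3 FPKM in untreated WT libraries and at 8.70, 8.00 and 9.51 in untreated Pim1-/- libraries. After LPS, Pim1 was at 665, 630.2 and 641 FPKM in WT and at 216, 205 and 236 in Pim1-/- libraries, lower in every Pim1-/- library but not absent, and this whole-gene value includes any sequence outside the deletion. Most low values of genes with 1 transcript lay near whole multiples of 1 fragment, on a scale fitted to each library. On that scale the member value with the fewest fragments, that of Bcl3 in untreated Pim1-/- cells, rested on about 130, which is a counting error of 8.7%. Exons of Nfkb2, Nfkbib and Bcl3 overlap exons of genes on the opposite strand over at most 14.5% of their exon bases for any 1 such gene. The library kit keeps strand, but the sources used here do not say whether the counting used it, and without it such reads cannot be told apart.

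LPS raised the RNA of all 10 genes in both genotypes. In WT cells the increase in mean FPKM ran from 3.46-fold for Rela, the main activating subunit, to 90.2-fold for Nfkbiz, an inducible nuclear IκB protein. In Pim1-/- cells it ran from 3.74-fold for Rela to 180.0-fold for Nfkbiz. On the log2(FPKM + 1) scale the median difference was 4.68 for the 3 classical IκB genes and 3.36 for the 5 subunits in WT cells, and 4.84 and 3.22 in Pim1-/- cells.

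**Figure D1:**
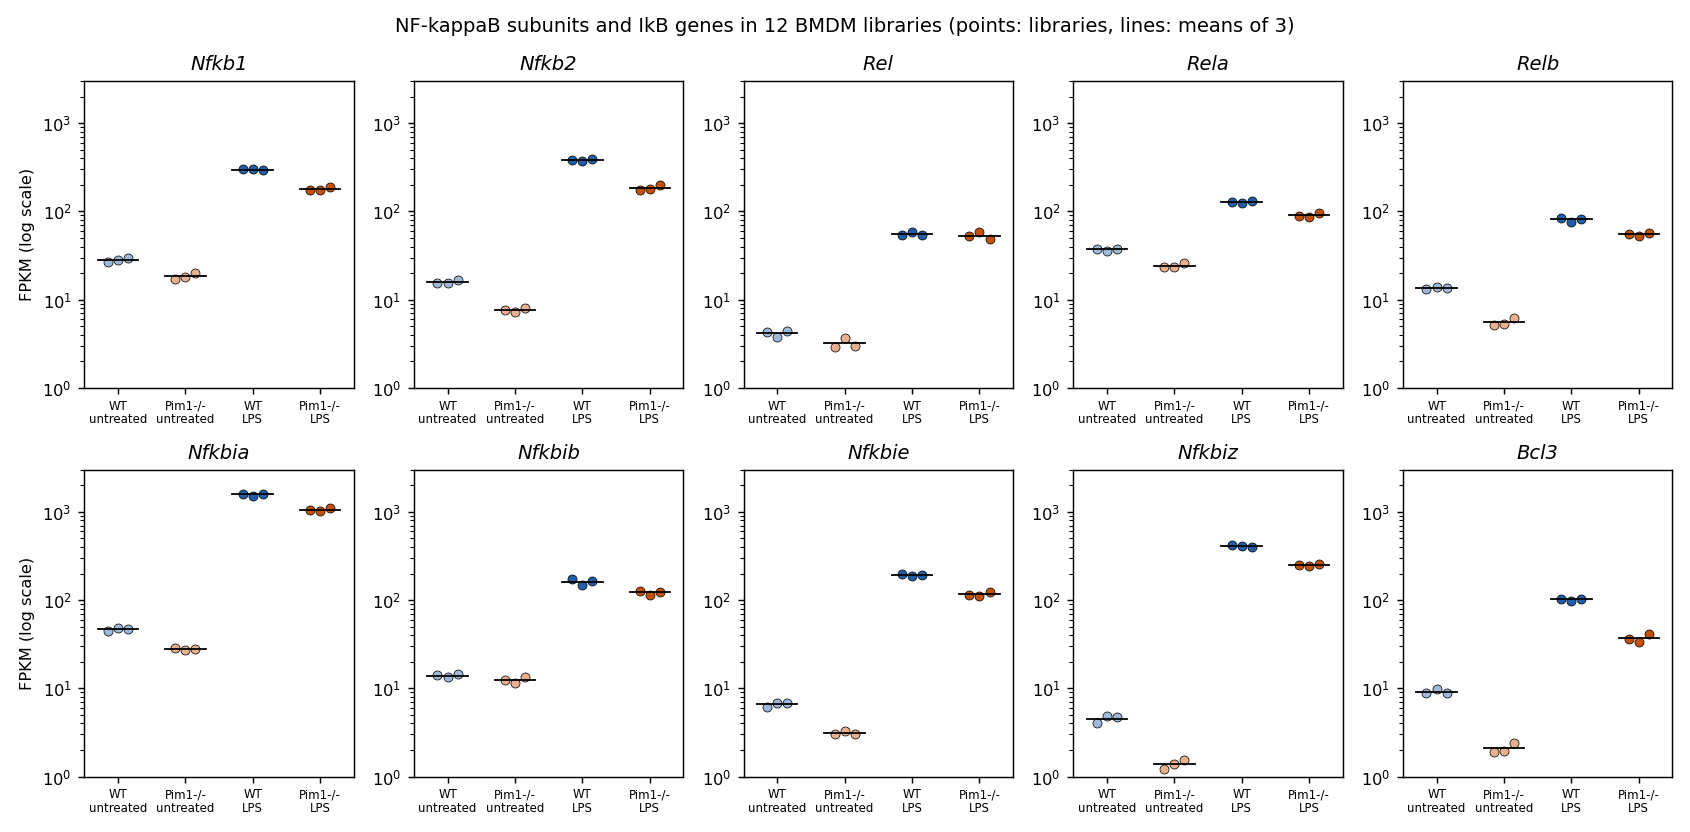
FPKM on a log axis of each of the 10 NF-κB and IκB genes described here in the 12 libraries, with 1 point per library and a line at the mean of each group of 3. After LPS every gene sits far above its untreated level in both genotypes, and the Pim1-/- points sit below the WT points except for Rel after LPS and Nfkbib without treatment, where the points overlap.

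All 10 members were called higher after LPS in WT cells (more than 2-fold, p under 0.05 and FDR under 0.1 with limma), where 20.1% of all genes tested were called higher and 14.7% lower. In Pim1-/- cells all 10 were again called higher, beside 14.6% higher and 10.4% lower among all genes. The members' median log2 difference was 3.45 in WT and 3.64 in Pim1-/- cells, while the median of all genes was 0.00 and -0.01. Scaling each library to the same FPKM sum, called equal-sum scaling here, gave all-gene medians of -0.71 and -0.62, relative to which the members' medians were 3.45 and 3.82, and turned the WT split of 2130 genes higher and 1556 lower into 1236 and 4079, and the Pim1-/- split of 1546 and 1103 into 1026 and 3146. Quantile normalization gave 1644 higher and 1807 lower in WT, and 1305 and 1352 in Pim1-/- cells. The 10 members were higher after LPS under every scaling tried.

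LPS also changed the order of the members. Nfkbia, which encodes IκBα, had the highest mean FPKM in every group. In untreated WT cells Rela (37.1 FPKM) and Nfkb1 (28.2 FPKM) came next, and Nfkbiz (4.54 FPKM) and Rel (4.16 FPKM) were last with overlapping libraries. After LPS in WT cells Nfkbiz (409.9 FPKM) and Nfkb2 (383 FPKM) stood directly under Nfkbia, and Rel was again last, with no overlap between any neighbours in the order. In LPS-treated Pim1-/- cells the neighbours Nfkb2 and Nfkb1, Nfkbib and Nfkbie, and Relb and Rel overlapped, and Bcl3 took the last place at 36.8 FPKM.

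Promoter windows of 300 bases, from 250 before to 50 after a transcription start, were read from RefSeq (GRCm38.p6) for 7 of the 10 genes to look for the DNA motif that NF-κB binds. Nfkb1, Relb and Nfkbiz had no entry. The consensus κB motif was searched on both strands and is held by 4.51% of the 32851 promoter windows in the table, and a stricter form, GGGA followed by any base and TTTCC, by 0.411%. Every strict match is also a consensus match. Windows of Nfkb2, Nfkbia, Nfkbie, Rel and Bcl3 held at least 1 consensus match, and those of Rela and Nfkbib held none. Genes without a match rose after LPS too, Rela 3.46-fold and Nfkbib 11.6-fold in WT, beside 11.1-fold for Bcl3. The matches of the 5 genes that held them are printed below. Each sequence is given 5′ to 3′ on the gene's strand, with the matching bases in capitals, and where a match lies in an annotated exon at most 30 bases are shown.
Nfkbia, chr12:55492648-55492716, minus strand, match at -29: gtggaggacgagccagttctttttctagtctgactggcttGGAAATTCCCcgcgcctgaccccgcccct
Nfkb2, chr19:46305695-46305724, plus strand, match at 11: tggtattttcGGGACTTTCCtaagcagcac
Nfkb2, chr19:46305449-46305478, plus strand, match at -236: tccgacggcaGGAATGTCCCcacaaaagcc
Nfkb2, chr19:46304689-46304717, plus strand, match at -39: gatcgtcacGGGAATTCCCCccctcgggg
Nfkb2, chr19:46304716-46304745, plus strand, match at -11: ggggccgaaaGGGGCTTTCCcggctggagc
Nfkbie, chr17:45555554-45555643, plus strand, match at -106: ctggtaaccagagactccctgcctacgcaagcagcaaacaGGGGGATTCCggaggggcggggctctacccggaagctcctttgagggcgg
Rel, chr11:23771011-23771101, minus strand, match at -92: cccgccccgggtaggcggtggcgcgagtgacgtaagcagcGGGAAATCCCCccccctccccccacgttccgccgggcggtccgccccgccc
Bcl3, chr7:19822734-19822763, minus strand, match at 3: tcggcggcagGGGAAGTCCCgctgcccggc
The number is the first matching base relative to the start, which counts as 1. The capitals of Rel and of the Nfkb2 match at -39 cover 2 overlapping matches each. The matches of Nfkbia and of Nfkb2 at 11 also fit the stricter form. Nfkb2 has 3 starts in the table, at 46304737 (matches at -39 and -11), 46305695 (matches at -236 and 11) and 46305930, from which the match at 11 lies at -225. A match is a description of the letters and does not show binding.

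Between genotypes all 10 members were lower in untreated Pim1-/- cells and 9 of the 10 after LPS, where Rel did not pass the test (adjusted p = 0.364 with limma). Bcl3 differed most, at 23.0% of its WT level in untreated cells and 36.0% after LPS. Nfkb2 was at 47.9% and 47.7% of WT, and Nfkbia at 59.8% and 67.4%. The mean of Rel after LPS was 94.9% of WT, with overlapping libraries.

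In untreated cells 3 of the 10 members (Relb, Nfkbiz and Bcl3) were called lower in Pim1-/- and none higher, where 3.37% of all genes were called lower and 4.40% higher. Without the fold threshold all 10 were lower at an FDR under 0.05, as were 42.0% of all genes, with 32.7% higher. The members' median log2 difference was -0.80 and that of all genes -0.05. After LPS 2 members (Nfkb2 and Bcl3) were called lower and none higher, beside 5.15% of all genes lower and 3.51% higher. At an FDR under 0.05 alone 9 members were lower, all but Rel, as were 41.7% of all genes, with 35.7% higher, and the members' median was -0.64 against -0.03 for all genes. Quantile normalization and equal-sum scaling left only Bcl3 called lower after LPS, with Nfkb2 at -0.79 and -0.86. Equal-sum scaling also moved the median of all genes after LPS to 0.13, relative to which the members' median was -0.57, and turned the split of 545 genes lower and 371 higher into 377 and 610. With quantile normalization that split was 364 and 326.

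Other RNA moved with genotype too. Summed FPKM of 10 macrophage markers (such as Csf1r, Cd68 and Lyz2) was 28080 to 30120 in untreated WT and 14540 to 15430 in untreated Pim1-/- libraries, and 31620 to 32090 and 16310 to 18150 after LPS, with 9 of 10 markers lower in Pim1-/- at an FDR under 0.05 without treatment and 10 of 10 after LPS, beside the 42.0% and 41.7% of all genes. Most of that sum was Lyz2 (26300 and 13300 FPKM in untreated WT and Pim1-/- cells), and single markers differed unequally, by -1.59 for Csf1r, -0.28 for Cd68 and -0.06 for Cd14 (adjusted p = 0.218) on the log2 scale without treatment. Summed FPKM of 20 cell cycle genes was 154.7 to 172.8 in untreated WT and 1058 to 1146 in untreated Pim1-/- libraries, and 382 to 388 and 799 to 882 after LPS. Pcna made up most of the sums after LPS (313 FPKM in WT and 546 in Pim1-/- cells), the median log2 difference of the 20 genes was 3.21 without treatment and 2.38 after LPS, and Mki67 was lower in Pim1-/- cells after LPS (-0.12, adjusted p = 0.0435). All 10 macrophage markers had a mean above 1 FPKM in every group, whereas 22 marker genes of other cell types summed to at most 14.2 FPKM in any library, with 6 to 8 of them listed at 0 in all libraries of a group. The part of these differences in the members' lower level was not tested, and in bulk RNA fewer cells of a type and less RNA per cell cannot be told apart.

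**Figure D2:**
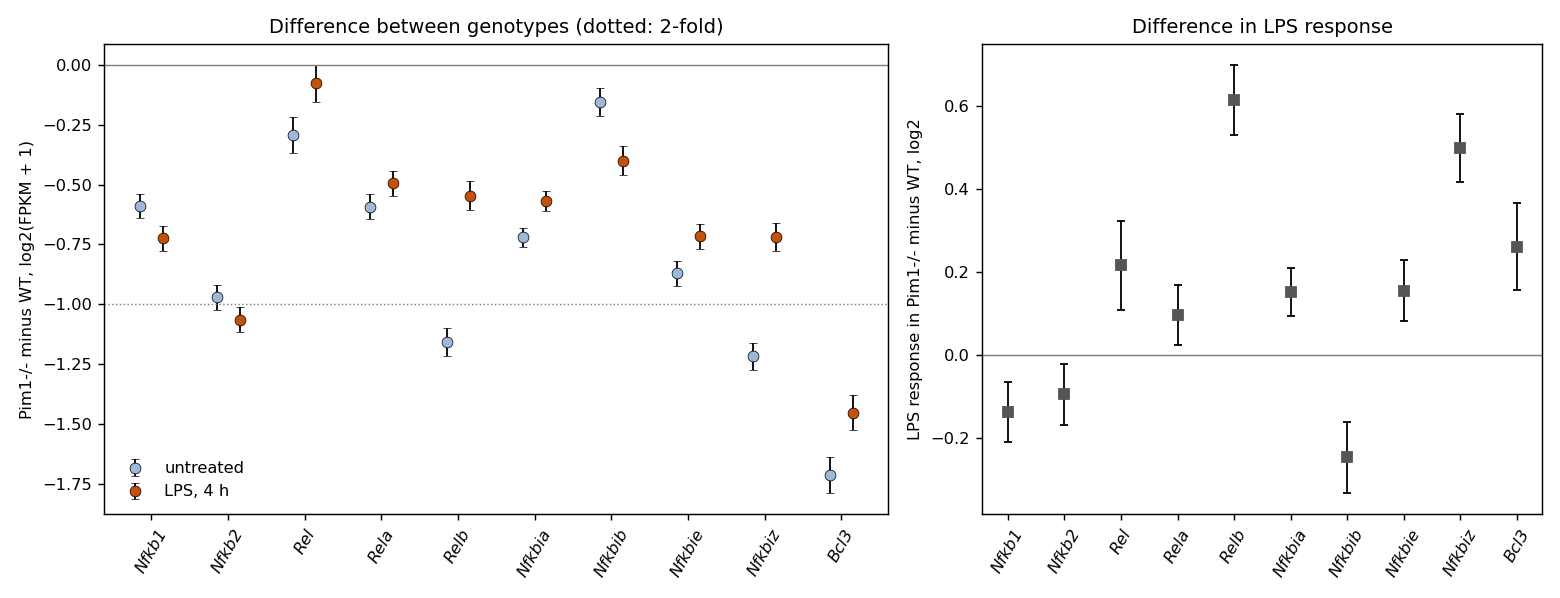
Left, the difference between Pim1-/- and WT cells on the log2(FPKM + 1) scale for each gene, untreated and after LPS, with the standard error from limma and a dotted line at 2-fold lower. All points lie below 0, although Rel after LPS turns to 0.14 and 0.13 under quantile normalization and equal-sum scaling. Right, the difference in LPS response with its standard error, with Relb highest at 0.61 and Nfkbib lowest at -0.25, which turns to 0.035 under quantile normalization, as Nfkb1 (0.16) and Nfkb2 (0.31) also turn positive. It is on the same log2(FPKM + 1) scale, which understates differences of genes with low untreated values, such as Nfkbiz and Bcl3.

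Among the subunits Nfkb2 (chromosome 19, 46304320 to 46312385, GENCODE M21), whose product is a precursor in the non-canonical pathway, was at 15.3, 15.6 and 16.7 FPKM in untreated WT and at 7.59, 7.30 and 7.95 in untreated Pim1-/- libraries. After LPS, Nfkb2 was at 386, 372 and 391 FPKM in WT and at 174, 177 and 198 in Pim1-/- libraries. Every Pim1-/- value lay under every WT value in both conditions. The log2 difference was -0.97 ± 0.05 (SE, adjusted p = 1.94e-10 with limma) without treatment and -1.06 ± 0.05 (adjusted p = 5.77e-11) after LPS, so that the 2-fold threshold fell between them.

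Nfkb1 (chromosome 3, 135584655 to 135691547), which encodes the other precursor subunit, was at 26.8, 28.5 and 29.3 FPKM in untreated WT and 17.3, 18.1 and 19.8 in untreated Pim1-/- libraries. Its values after LPS were 301, 299 and 294 FPKM in WT and 175, 176 and 189 in Pim1-/- libraries. The genotypes were apart in both conditions, with log2 differences of -0.59 ± 0.05 (adjusted p = 5.12e-08) and -0.73 ± 0.05 (adjusted p = 3.63e-09).

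Rela (chromosome 19, 5637483 to 5648130), the subunit with the main transactivation domain of the canonical dimer, was at 37.8, 36.0 and 37.3 FPKM in untreated WT and 23.6, 23.1 and 26.0 in untreated Pim1-/- libraries. LPS brought it to 128, 126 and 130.3 FPKM in WT and 89.4, 86.1 and 97.0 in Pim1-/- libraries. Here too no libraries of the genotypes overlapped, and the log2 differences were -0.59 ± 0.05 (adjusted p = 5.33e-08) and -0.49 ± 0.05 (adjusted p = 3.42e-07). The rise of Rela after LPS in WT was under 2-fold on the log2 scale under quantile normalization (0.88) and equal-sum scaling (0.97).

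Relb (chromosome 7, 19606217 to 19629438), the partner of the processed Nfkb2 product, was the subunit with the largest relative loss in untreated cells. It was at 13.3, 13.8 and 13.6 FPKM in untreated WT and 5.11, 5.31 and 6.18 in untreated Pim1-/- libraries. With LPS the values were 84.7, 76.5 and 82.6 FPKM in WT and 55.9, 52.7 and 57.4 in Pim1-/- libraries. The groups did not overlap in either condition, and the log2 difference was -1.16 ± 0.06 (adjusted p = 1.03e-10) without treatment and -0.55 ± 0.06 (adjusted p = 5.82e-07) after LPS.

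Rel (chromosome 11, 23736847 to 23770970), which encodes the lymphoid and myeloid subunit c-Rel, was at 4.31, 3.77 and 4.40 FPKM in untreated WT and 2.94, 3.72 and 2.99 in untreated Pim1-/- libraries. After LPS, Rel was at 54.4, 58.3 and 54.6 FPKM in WT and 52.1, 57.7 and 48.9 in Pim1-/- libraries. The highest untreated Pim1-/- library lay just under the lowest WT library, and after LPS the genotypes overlapped. The log2 difference was -0.29 ± 0.08 (adjusted p = 0.00254) without treatment. After LPS it was -0.08 ± 0.08 (adjusted p = 0.364), with the sign turned by quantile normalization (0.14) and equal-sum scaling (0.13).

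Of the classical IκB genes, Nfkbia (chromosome 12, 55489410 to 55492647), whose product is rebuilt after each wave of NF-κB activation, was at 45.2, 48.0 and 46.6 FPKM in untreated WT and 28.5, 26.9 and 28.3 in untreated Pim1-/- libraries. LPS took it to 1609, 1526 and 1583 FPKM in WT and 1054, 1029 and 1096 in Pim1-/- libraries. Pim1-/- values were the lower ones throughout, with log2 differences of -0.72 ± 0.04 (adjusted p = 3.88e-10) and -0.57 ± 0.04 (adjusted p = 5.25e-09).

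Nfkbie (chromosome 17, 45555703 to 45563169), which encodes IκBε, was at 6.12, 6.89 and 6.76 FPKM in untreated WT and 3.08, 3.28 and 3.08 in untreated Pim1-/- libraries. In LPS-treated cells the values were 199, 187 and 195 FPKM in WT and 115, 113 and 125 in Pim1-/- libraries. The genotypes did not overlap, and the log2 differences were -0.87 ± 0.05 (adjusted p = 6.21e-10) and -0.72 ± 0.05 (adjusted p = 5.13e-09).

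Nfkbib (chromosome 7, 28758251 to 28767512), which encodes IκBβ, was the IκB gene among the members with the smallest difference. It was at 14.1, 13.3 and 14.4 FPKM in untreated WT and 12.3, 11.6 and 13.4 in untreated Pim1-/- libraries. After LPS, Nfkbib was at 172, 149.6 and 163 FPKM in WT and 126, 115 and 125 in Pim1-/- libraries. The untreated genotypes overlapped by 1 library each and the LPS-treated ones did not. The log2 difference was -0.15 ± 0.06 (adjusted p = 0.0296) without treatment, which no longer passed with any of 4 libraries left out (WT replicates 1 or 3, Pim1-/- replicates 1 or 2, adjusted p = 0.0695 to 0.138), with no filter (0.0589) or with equal-sum scaling (0.163). After LPS it was -0.40 ± 0.06 (adjusted p = 1.88e-05), and -0.11 (adjusted p = 0.123) with quantile normalization.

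Bcl3 (chromosome 7, 19808462 to 19822770), a nuclear IκB protein that binds the products of Nfkb1 and Nfkb2 on DNA, was at 8.90, 9.81 and 8.79 FPKM in untreated WT and 1.91, 1.97 and 2.43 in untreated Pim1-/- libraries. With LPS, Bcl3 was at 104, 98.4 and 104 FPKM in WT and 35.8, 33.4 and 41.1 in Pim1-/- libraries. Even the highest Pim1-/- library lay far under the lowest WT library in each condition. Its log2 differences, -1.71 ± 0.07 (adjusted p = 1.33e-11) and -1.45 ± 0.07 (adjusted p = 9.48e-11), were the most negative of the 10 members in both comparisons. Set against the summed FPKM of Nfkb1 and Nfkb2 in the same library, Bcl3 was at 0.2084 ± 0.0161 (SD, n = 3) in untreated WT and 0.0807 ± 0.0060 in untreated Pim1-/- cells, and at 0.1498 ± 0.0027 and 0.1011 ± 0.0058 after LPS.

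The 3 genes whose 4 group means, centred on the log2(FPKM + 1) scale, lay nearest to those of Bcl3 were Fcgr4, Ikbke and Samhd1, at distances of 0.32, 0.43 and 0.48. Fcgr4 (an activating Fc receptor) averaged 21.7 FPKM in WT and 8.38 in Pim1-/- cells before LPS, and 254 and 92.3 FPKM after it.

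Nfkbiz (chromosome 16, 55811375 to 55838899), which encodes the coactivator IκBζ, was at 4.04, 4.85 and 4.74 FPKM in untreated WT and 1.23, 1.39 and 1.52 in untreated Pim1-/- libraries. After LPS, Nfkbiz was at 419, 412 and 398 FPKM in WT and 249, 244 and 253 in Pim1-/- libraries. The genotypes were apart in both conditions, at 30.4% of WT without treatment and 60.6% after LPS. The log2 difference was -1.22 ± 0.06 (adjusted p = 3.83e-11) without treatment and -0.72 ± 0.06 (adjusted p = 1.71e-08) after LPS.

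To determine whether LPS acted on the members to a different extent in Pim1-/- cells, the responses of the genotypes were compared with an interaction contrast. Relb and Nfkbiz responded more in Pim1-/- than in WT cells. Relb rose 6.0-fold in mean FPKM in WT and 10.0-fold in Pim1-/- cells, a difference in log2 response of 0.61 ± 0.08 (SE, adjusted p = 1.39e-05 with limma). Nfkbiz rose 90.2-fold and 180.0-fold, a difference of 0.50 ± 0.08 (adjusted p = 7.8e-05). Leaving out any 1 library kept both differences positive and past an FDR of 0.05, at 0.57 to 0.68 for Relb and 0.45 to 0.57 for Nfkbiz. The log2(FPKM + 1) scale understates the difference of Nfkbiz, whose untreated Pim1-/- libraries held 1.23 to 1.52 FPKM. By mean FPKM the folds of Nfkbiz differed more than those of Relb, and Bcl3 rose 11.1-fold in WT and 17.5-fold in Pim1-/- cells.

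By the 2-fold rule 0 members were called in this contrast with limma (5 at an unadjusted p under 0.05), where 4.43% of all genes were called lower and 2.24% higher in response. At an FDR under 0.05 alone 4 members had a larger response in Pim1-/- cells and 1 a smaller one. Of all genes 29.6% had a positive and 33.3% a negative difference, genes that fell after LPS included. Equal-sum scaling turned the split of 469 genes lower and 237 higher into 423 and 413. Besides Relb and Nfkbiz the members that passed were Bcl3 (0.26 ± 0.11, adjusted p = 0.042), Nfkbia (0.15 ± 0.06, adjusted p = 0.0335) and, with a smaller response, Nfkbib (-0.25 ± 0.08, adjusted p = 0.0198), which turned to 0.035 under quantile normalization. Nfkbib did not pass with equal-sum scaling either (-0.091, adjusted p = 0.409 with limma). All 3 of these members lost their pass with single libraries left out, Bcl3 with 8 of the 12, Nfkbia with 6 and Nfkbib with 4.

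The other 5 members did not pass: Rel at 0.22 ± 0.11 (adjusted p = 0.0908), Nfkbie at 0.15 ± 0.07 (0.0782), Rela at 0.10 ± 0.07 (0.257), Nfkb1 at -0.14 ± 0.07 (0.113) and Nfkb2 at -0.09 ± 0.07 (0.281), of which Nfkb1 (0.16 and 0.026) and Nfkb2 (0.31 and 0.10) turned positive under quantile normalization and equal-sum scaling. With these scalings limma passed Rel (adjusted p = 0.00331 and 0.00811), Rela (0.000607 and 0.0176) and Nfkbie (2.51e-05 and 0.000749), each with a larger response in Pim1-/- cells. Nfkb2 passed with quantile normalization only (0.00542), and Nfkbie also with a pseudocount of 0.1 (0.00268). Single libraries left out let Rel pass in 3 cases, Nfkbie in 1 and Nfkb1, with a smaller response, in 2. The genes nearest to Relb over the 4 group means were Cybb, H2-T24 and Tapbp, at distances of 0.18, 0.19 and 0.23. Cybb (the catalytic subunit of the phagocyte NADPH oxidase) averaged 153 FPKM in WT and 61.5 in Pim1-/- cells before LPS, and 842 and 643 FPKM after it.

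Because a ratio within 1 library does not depend on how libraries are scaled to each other, the inhibitors were also set against the subunits within each library. The summed FPKM of Nfkbia, Nfkbib and Nfkbie over that of the 5 subunits was 0.671, 0.699 and 0.669 in untreated WT and 0.776, 0.726 and 0.710 in untreated Pim1-/- libraries. After LPS it was 2.07, 1.999 and 2.04 in WT and 2.37, 2.29 and 2.28 in Pim1-/- libraries. All Pim1-/- values were above all WT values of the same treatment, and LPS raised the ratio 3.0-fold in WT and 3.14-fold in Pim1-/- cells. Each of these 4 comparisons gave p = 0.1 in the exact two-sided permutation test, the smallest p that 3 against 3 libraries allow, and 0.109 after Benjamini-Hochberg adjustment over 24 comparisons of ratios and shares. The summed subunits themselves fell from 98.8 ± 2.15 FPKM (SD, n = 3) in untreated WT to 59.0 ± 3.43 in untreated Pim1-/- cells and from 947 ± 12.8 to 562 ± 24.3 after LPS, and the summed classical IκB from 67.2 ± 1.5 to 43.5 ± 1.52 and from 1928 ± 59.6 to 1300.0 ± 44.7.

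The make-up of the subunit RNA changed with LPS and differed between genotypes. Rela held 37.5% ± 1.11 (SD, n = 3) of the summed subunits in untreated WT cells and 13.6% ± 0.12 after LPS, while Nfkb2 went from 16.1% ± 0.43 to 40.5% ± 0.56. In Pim1-/- cells Rela went from 41.1% ± 0.79 to 16.2% ± 0.42 and Nfkb2 from 12.9% ± 0.44 to 32.5% ± 0.85. Nfkb2 therefore held a smaller share in Pim1-/- than in WT cells in either condition, with differences of -3.16 and -7.96 percentage points, and Rel a larger one, at 9.44% ± 1.12 against 5.89% ± 0.31 after LPS. Relb differed in opposite directions, with a share of 9.36% in Pim1-/- against 13.7% in WT cells without treatment and of 9.85% against 8.58% after LPS. Values were apart in 22 of the 24 comparisons, each with p = 0.1 in the exact permutation test, and overlapped for the share of Nfkb1 between genotypes after LPS and of Relb between treatments in Pim1-/- cells (p = 0.3 each). Shares within a library add up to the whole, so these comparisons are not independent of each other.

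**Figure D3:**
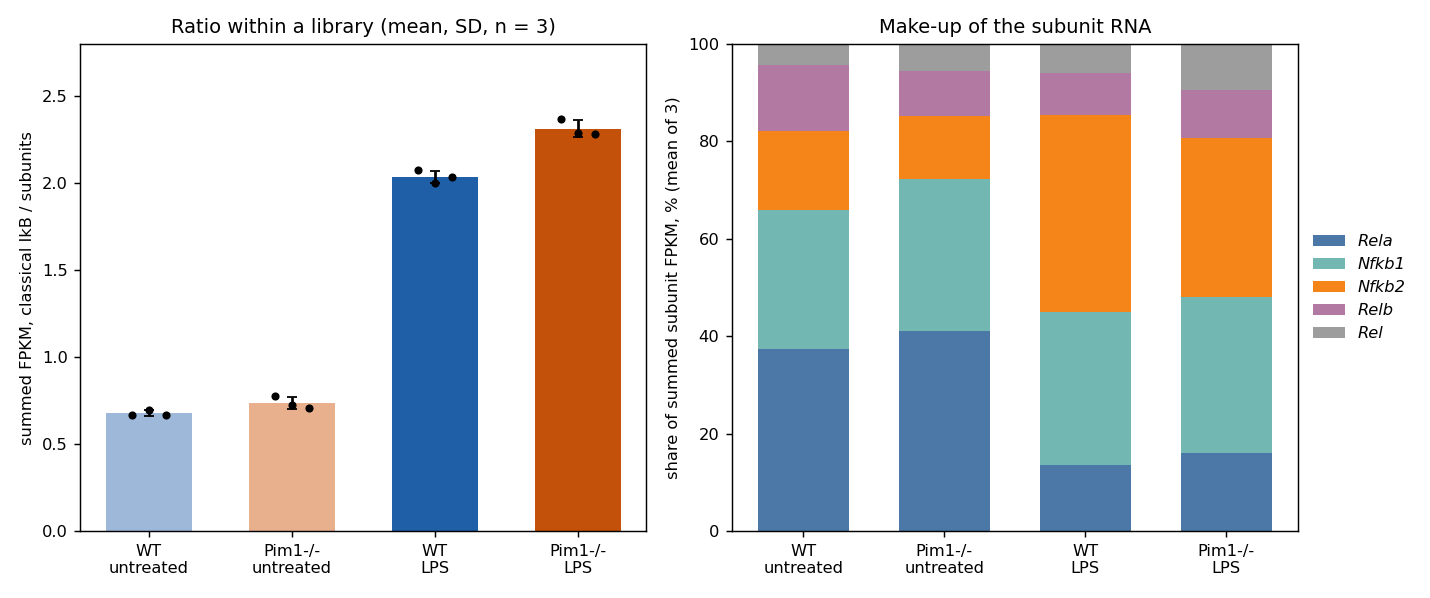
Left, summed FPKM of the 3 classical IκB genes divided by that of the 5 subunits in each library (points), with the mean and SD of 3 libraries; the Pim1-/- libraries lie above the WT libraries of the same treatment. Right, mean share of each subunit in the summed subunit FPKM of a group, with the Nfkb2 share rising from 16.1% to 40.5% in WT and from 12.9% to 32.5% in Pim1-/- cells.

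The IκB kinase complex and its activators were examined next, on a list of 11 genes, called the kinase list here, that also holds adaptors. After LPS 6 were lower and 1 higher in Pim1-/- cells at an FDR under 0.05, and without treatment 7 were lower and 2 higher, with list medians of -0.35 in both conditions beside -0.03 and -0.05 for all genes. Of all genes 41.7% were lower and 35.7% higher after LPS, and 42.0% and 32.7% without treatment. The higher count after LPS became 4 with equal-sum scaling and 2 with quantile normalization. Ikbke, an IκB kinase-related kinase of the interferon pathway, was at 236, 233 and 238 FPKM in WT and 122, 119 and 125 in Pim1-/- libraries after LPS. Its libraries did not overlap, and the log2 difference was -0.94 ± 0.05 (adjusted p = 1.31e-10) after LPS and -1.39 ± 0.05 (adjusted p = 1.23e-12) without treatment. Tab2, an adaptor of the TAK1 kinase, differed by -0.94 ± 0.05 (adjusted p = 1.11e-10) after LPS and Ikbkb, the catalytic kinase of the canonical pathway, by -0.77 ± 0.06 (adjusted p = 8.13e-09).

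Map3k14, the kinase that starts the non-canonical pathway, fell after LPS in WT cells from 4.85 ± 0.35 to 1.44 ± 0.08 FPKM (SD, n = 3) and was at 2.02 ± 0.27 and 0.922 ± 0.173 FPKM in Pim1-/- cells. Its log2 response differed between genotypes by 0.61 ± 0.11 (adjusted p = 0.000193), that of Ikbke by 0.45 ± 0.07 (adjusted p = 5.56e-05) and that of Tab1, another TAK1 adaptor, by 0.43 ± 0.10 (adjusted p = 0.00178). In all the difference was positive for 4 of the 11 genes and negative for 2 at an FDR under 0.05, beside 29.6% and 33.3% of all genes. The 2 negative ones were Chuk (-0.25, adjusted p = 0.0109) and Tbk1 (-0.20, adjusted p = 0.00347), named after their values were seen. The negative count became 0 with quantile normalization and with equal-sum scaling, and 4 without Pim1-/- LPS replicate 3. Map3k14 and Tab1 fell after LPS in both genotypes, so their positive differences mean a smaller fall in Pim1-/- cells.

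Of 14 genes known to restrain the pathway, among them ubiquitin-editing enzymes with their adaptors, ubiquitin ligases and an RNase, 7 were lower and 3 higher in Pim1-/- cells after LPS at an FDR under 0.05, and 9 were lower and 3 higher without treatment, with list medians of -0.12 and -0.25. These shares stand beside 41.7% lower and 35.7% higher among all genes after LPS, and 42.0% and 32.7% without treatment, and the higher count after LPS was 5 with equal-sum scaling and 2 to 4 with single libraries left out. Tnip3, an adaptor of the ubiquitin-editing enzyme encoded by Tnfaip3, was at 574, 589 and 563 FPKM in WT and 151, 144 and 128 in Pim1-/- libraries after LPS. The Pim1-/- libraries lay far below the WT libraries, by -2.03 ± 0.06 (adjusted p = 1.45e-13) on the log2 scale. Pdlim2, which encodes a ubiquitin ligase for the Rela product, went the other way, at 2.59, 2.66 and 3.42 FPKM in WT and 7.97, 9.16 and 8.69 in Pim1-/- libraries after LPS, a log2 difference of 1.31 ± 0.07 (adjusted p = 2.27e-10). Tnip2, a relative of Tnip3, was lower after LPS by -1.06 ± 0.05 (adjusted p = 9.07e-11), but under the 2-fold threshold with quantile normalization (-0.87) and equal-sum scaling (-0.89), and Tax1bp1, a partner of the Tnfaip3 product, by -0.47 ± 0.05 (adjusted p = 4.44e-07).

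NF-κB target genes differed in both directions. Of the 30 listed 29 were tested, and after LPS 20 were lower and 6 higher in Pim1-/- cells at an FDR under 0.05, with a list median of -0.47 beside -0.03 for all genes, of which 41.7% were lower and 35.7% higher. Without treatment 13 were lower and 2 higher, with a list median of -0.04 beside -0.05 for all genes, of which 42.0% were lower and 32.7% higher. Csf2, which encodes GM-CSF, was at 1.22, 1.91 and 0.790 FPKM in WT and 23.4, 20.1 and 20.9 in Pim1-/- libraries after LPS, a log2 difference of 3.31 ± 0.12 (adjusted p = 1.71e-12). Cxcl1, a neutrophil chemokine, was at 273, 249.6 and 239 FPKM in WT and 1772, 1707 and 1542 in Pim1-/- libraries, a difference of 2.72 ± 0.06 (adjusted p = 1.65e-14). Both were higher in all Pim1-/- libraries while the members described here, except Rel, were lower in the same libraries. Nfkbid, a nuclear IκB gene on the list of restraining genes and named after its values were seen, was not lower after LPS. It was at 19.6 FPKM in WT and 21.6 in Pim1-/- cells (log2 difference 0.13, adjusted p = 0.113 with limma). Without treatment its difference was -0.23 (adjusted p = 0.00988).

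Saa3, an acute-phase gene, was at 4409, 4052 and 4201 FPKM in WT and 845, 724 and 798 in Pim1-/- libraries after LPS, lower by -2.42 ± 0.46 (adjusted p = 0.000185). Lcn2, an iron-binding defence protein, was at 70.3, 64.6 and 67.0 FPKM in WT and 15.7, 14.4 and 14.1 in Pim1-/- libraries, lower by -2.12 ± 0.06 (adjusted p = 6.08e-14). Untreated WT replicate 2 held 16.3 FPKM of Saa3 against 1.41 and 3.20 in the other WT libraries, and without it the untreated difference of -1.38 (adjusted p = 0.013) became -0.57 (adjusted p = 0.0192), under the 2-fold threshold, while its difference in response went from -1.04 (adjusted p = 0.176) to -1.85 (adjusted p = 3.44e-05). The responses of Csf2, Cxcl1, Lcn2, Tnip3 and Pdlim2 to LPS differed between genotypes past the 2-fold rule, by 3.30, 2.73, -2.00, -2.29 and 1.65 on the log2 scale (adjusted p at most 2.79e-09).

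**Figure D4:**
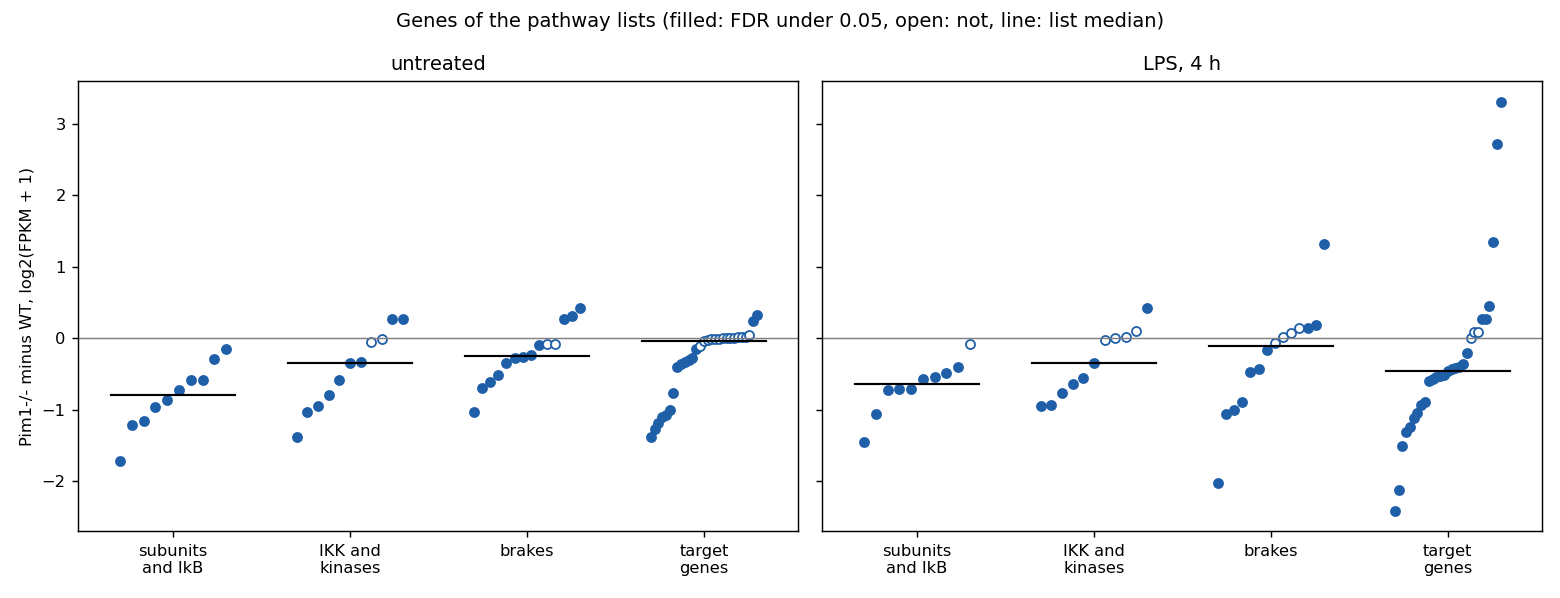
Difference between Pim1-/- and WT cells on the log2(FPKM + 1) scale for every tested gene of the 10 subunits and IκB genes and of 3 pathway lists, untreated (left) and after LPS (right), with 1 point per gene, filled where the FDR was under 0.05, and a line at each list's median. These 10 subunits and IκB genes lie below 0 in both panels, except that Rel after LPS turns positive under quantile normalization and equal-sum scaling, and the target genes spread from -2.42 (Saa3) to 3.31 (Csf2) after LPS.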

How the data were processed

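Stranded mRNA libraries of WT and Pim1-/- BMDMs were sequenced by the authors, and the submitters' processing notes name bcl2fastq (2.20.0.422), cutadapt (1.18), TopHat2 (2.0.13), Cuffdiff (2.2.1) and mm10, while the methods name rat rn5. The deposited columns were read as FPKM that the authors made with Cuffdiff, 1 file per library, and of the 23997 gene names 22702 matched GENCODE M21 symbols and 1177 RefSeq symbols or synonyms, all of mouse. Library normalization, annotation and the strand setting of the counting: not given in the sources used here. FPKM hold no counts, so depth is known only from low values of genes with 1 transcript, of which 61.1 to 71.8% lay within 0.05 of a whole multiple of 1 fragment. The scale was picked for each library to make this share highest. Chance gives 10.0% at a fixed scale, and its share at a picked scale was not worked out. That scale follows the normalization of the authors.

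The members and lists were chosen with earlier results of these data known. No value was rescaled. A gene entered the fit if 3 or more libraries held 1 FPKM or more, and such genes were fitted as 4 group means of log2(FPKM + 1) with limma (3.58.1, R 4.3.3), with a mean-variance trend and Benjamini-Hochberg adjustment over all genes tested. This scale understates changes of low genes. Calls took more than 2-fold, p under 0.05 and FDR under 0.1, and an FDR under 0.05 is given beside them. Named genes were the members, Pim1, from each pathway list the 3 with the largest difference between genotypes after LPS and the 3 with the largest difference in response, and the 3 genes nearest to the member with the largest of each. Genes named as examples of marker lists were chosen after their values were seen. Shares and ratios were tested with exact permutation tests (scipy 1.17.1). Alternatives were a pseudocount of 0.1, no filter or 5 FPKM, median-ratio and quantile scaling, equal-sum scaling, no trend, only the groups compared, a replicate block and leaving out each library. Gene positions are from GENCODE M21 (GRCm38).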

Additional observations from a re-analysis of the deposited data

Results flagged for a closer look

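The results below are those of the named genes whose LPS response differed between Pim1-/- and WT cells by the interaction test of limma at an FDR under 0.05, given as the difference in log2 response, Pim1-/- minus WT. Among the members these were Relb at 0.61 (adjusted p = 1.39e-05), Nfkbiz at 0.50 (7.8e-05), Bcl3 at 0.26 (0.042), Nfkbia at 0.15 (0.0335) and Nfkbib at -0.25 (0.0198), the last of which turned to 0.035 under quantile normalization and was at -0.091 (0.409) under equal-sum scaling. Pim1 itself stood at -0.26 (0.0234) and at 0.21 under quantile normalization. Of the kinase list, Map3k14 was at 0.61 (0.000193), Ikbke at 0.45 (5.56e-05) and Tab1 at 0.43 (0.00178). Of the genes that restrain the pathway, Tnip3 was at -2.29 (8.01e-12), Tax1bp1 at -0.78 (1.76e-07), Tnip2 at -0.55 (1.75e-05) and Pdlim2 at 1.65 (2.79e-09). Of the target genes, Csf2 was at 3.30 (3.78e-10), Cxcl1 at 2.73 (4.6e-12) and Lcn2 at -2.00 (2.67e-11). Map3k14, Tab1 and Pdlim2 fell after LPS in both genotypes, so their positive differences mean a smaller fall in Pim1-/- cells. Over the whole lists the difference was positive for 4 and negative for 2 of the 11 genes of the kinase list at this FDR. For the 14 restraining genes these counts were 5 and 6, and for the 29 target genes 10 and 13. The negative count of the kinase list became 0 with quantile normalization and with equal-sum scaling, and 4 without Pim1-/- LPS replicate 3. Over all genes tested the difference was negative for 33.3% and positive for 29.6% at this FDR, whether a gene rose or fell after LPS.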

How the results depend on the processing

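Direction and side of the threshold held for the members with a filter of 5 FPKM or median-ratio scaling, apart from the exceptions given here. Quantile normalization and equal-sum scaling moved the members' median difference between genotypes after LPS to -0.42 and -0.44, and turned Rel after LPS to 0.14 and 0.13. Under each 1 member was called lower after LPS, beside 364 and 377 of the 10581 genes tested lower and 326 and 610 higher. The members' median response difference became 0.43 and 0.36, with 8 and 7 members higher and 0 lower at an FDR under 0.05. Passes of all genes at that FDR were not counted under the alternatives. Both scalings turned the response differences of Nfkb1 (0.16 and 0.026), Nfkb2 (0.31 and 0.10) and Tab2 (0.26 and 0.021), and quantile normalization alone those of Nfkbib (0.035), Pim1 (0.21) and Ikbkb (0.19). Quantile normalization also called 1 member higher in response (Relb, 1.07), beside 286 of all genes higher and 431 lower. The median rise after LPS was 2.96 and 2.74 in WT under these scalings, and 3.21 in Pim1-/- cells under equal-sum scaling. Quantile normalization gave an untreated median of -0.88. A pseudocount of 0.1 gave medians of -0.89 in untreated cells, 3.62 and 4.03 after LPS in WT and Pim1-/- cells, and 0.23 in response. With it 5 members were called lower in untreated cells (Nfkb2 and Nfkbie added), beside 583 of all genes lower and 616 higher. The cause of these shifts was not tested. With no filter Bcl3 in response and Nfkbib in untreated cells lost their FDR under 0.05 (0.0936 and 0.0589), and without the trend so did Nfkbia in response (0.0555). Leaving out 1 library at a time gave 2 to 5 members higher and 0 to 2 lower in response at an FDR under 0.05, with 2 higher without WT LPS replicates 2 or 3, and 9 to 10 lower in untreated cells. In that series the medians ran from -0.66 to -0.62 between genotypes after LPS, from -0.83 to -0.77 in untreated cells and from 0.12 to 0.18 in response. The labels give the groups the same replicate numbers, but same-numbered libraries did not all correlate above 0.1 in any comparison (r from -0.07 to 0.34), so the numbers were not taken to pair them. With a replicate block 2 members were lower in response at an FDR under 0.05 (Nfkb1 added, adjusted p = 0.0446), and the other counts of members were as without it. FPKM without counts limit what can be said of depth, and 3 libraries a group limit each exact test to p = 0.1.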
